A study of Arabidopsis thaliana with 17 samples.

Results

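The small heat shock protein genes of the cytosol and nucleus were followed through a heat memory experiment in Arabidopsis thaliana seedlings. The set has 8 members among the 22746 probe sets tested. A list of loci fixed 6 of them (AT2G29500, AT1G53540, AT1G54050, AT2G19310, AT4G21870 and AT5G47600), each with 1 probe set of its own in the array annotation, and the other 2 were fixed by probe set identifier (250351_at and 252515_at). Neither identifier is listed in the annotation used here, so no locus is given for them. In hsfa2 seedlings (a single knockout line, SALK_008978, of the heat shock transcription factor gene HSFA2 in the Col-0 background) there were 2 primed and triggered, 2 triggered and 2 naive arrays. Wild-type Col-0 gave 3 primed and triggered, 3 triggered, 2 primed and 3 naive arrays. Seedlings grew at 22 °C under long days (16 h of light) and were collected whole at 7 d. Naive ones were never heated, primed ones had 1 h at 37 °C at 4 d and then 3 d of recovery, triggered ones had 1 h at 37 °C just before collection, and primed and triggered ones had both. Primed hsfa2 seedlings without the later heat were not analysed here, so every statement on the primed state is about the wild type.

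Small heat shock proteins are chaperones that work without ATP. They share an alpha-crystallin domain, assemble into oligomers, and bind proteins that begin to unfold, which are then handed to HSP70 and HSP101 machines for refolding. Plants hold a large cytosolic family whose best known members are hardly transcribed in unheated vegetative tissue and appear within minutes of heat through heat shock factors that bind heat shock elements in their promoters. Other members of the family have roles in seed and pollen development or no known heat response. HSFA2 is itself heat-induced and is known for keeping heat-induced transcription going after the heat has ended.

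Levels are log2 intensities, made from the deposited intensities. The median intensity of an array was 51.8 to 58.9 for the 10 recently heated samples, against 60.1 to 64.2 for the 7 others, and relative to those medians the change of an average probe set with triggering in the wild type shifts by 0.15 log2 units. Wild-type naive replicate 3 and both primed arrays stood apart from the other 14 in the hybridization control bioB (4.40 to 4.43 against 6.98 to 8.14 log2 units) and in the difference between the 3′ and 5′ probe sets of GAPDH (1.84 to 2.25 against 0.52 to 1.69), a sign of RNA or labelling quality. The labelled tissue was checked on green tissue markers (2 of 7 measured, RCA at 13.3 to 13.8 log2 units) and on the root marker PYK10 (10.4 to 12.9). No seed storage marker had a probe set of its own in the annotation used here. All 3 root markers measured fell with triggering in the wild type, PYK10 by 1.84 log2 units, and of the green tissue markers PRK fell by 0.74 while RCA was not called (−0.25). Whether a change in the tissues that gave the RNA has a part in the values below was not tested. The genotype could not be checked on its target, since the annotation lists no probe set for HSFA2. In whole seedlings, fewer cells of a type and less RNA per cell cannot be told apart.

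Heat without any earlier heat divided the 8 members. In the wild type 6 rose, by 4.50 to 10.06 log2 units, and 2 were not called. The first 6 were 250351_at, 252515_at, AT1G53540, AT2G29500, AT1G54050 and AT2G19310. The remaining 2 were AT4G21870 and AT5G47600. Over all probe sets, 5.9% were called higher in this comparison. The median change of the 8 members was 7.79 log2 units, against 0.00 over all probe sets. The division is a description, since this comparison made it: the smallest change among the 6 was 4.50 and the changes of the other 2 were −0.75 and 0.45.

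The members with the largest changes had low naive signals and triggered signals near the highest of their arrays. In naive wild-type arrays 250351_at was brighter than 12.6% to 20.9% of probe sets and 252515_at than 26.6% to 31.3%. Probe set 250351_at was at 13.33, 13.43 and 13.50 log2 units in the 3 triggered wild-type arrays, against 3.60, 3.20 and 3.29 in the 3 naive ones. Its change of 10.06 (SE 0.85, limma adjusted p = 3.01e-06) was the largest of all 22746 probe sets. Probe set 252515_at was at 14.10, 14.08 and 14.26 in triggered seedlings, against 4.15, 3.85 and 4.27 in naive ones, a change of 10.05 (SE 0.71, limma adjusted p = 5.15e-07). In all 10 arrays heated just before collection, 252515_at lay within 0.11 log2 units of the brightest probe set of its array. Its triggered level is therefore at the upper end of what the arrays measured, and the order of the changes of these members carries little information.

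AT1G53540 and AT2G29500 encode class I small heat shock proteins, the most abundant cytosolic class of heated plants. AT1G53540 was at 13.69, 13.84 and 13.82 in triggered arrays, against 3.76, 3.57 and 4.38 in naive arrays (change 9.88, SE 0.84, limma adjusted p = 3.01e-06). AT2G29500 was at 13.47, 13.60 and 13.59, against 5.47, 5.29 and 4.98 (change 8.31, SE 0.58, limma adjusted p = 4.43e-07). The groups did not overlap for either gene (13.8% of all probe sets were so placed), and the gap between them was many times the spread within each. The transcripts of class I genes are closely related in sequence, and cross-hybridization between their probe sets was not tested.

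AT1G54050 encodes the class III protein, which is found in the nucleus. It was at 13.06, 13.00 and 13.04 after triggering, against 5.30, 5.56 and 6.43 in naive arrays. The change was 7.27 (SE 0.38, limma adjusted p = 2.25e-08). AT2G19310, another HSP20 family member, was well above the lowest signals without heat. Its probe set was brighter than 62.3% to 83.8% of probe sets in the 5 naive arrays of both genotypes. Its levels of 12.60, 12.41 and 12.43 after triggering stood against 7.37, 8.42 and 8.13 in naive seedlings. This was a change of 4.50 (SE 0.36, limma adjusted p = 1.51e-06) or 22.7-fold. The groups were far apart, and the 3 triggered arrays differed by less than the naive ones.

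**Figure D1:**
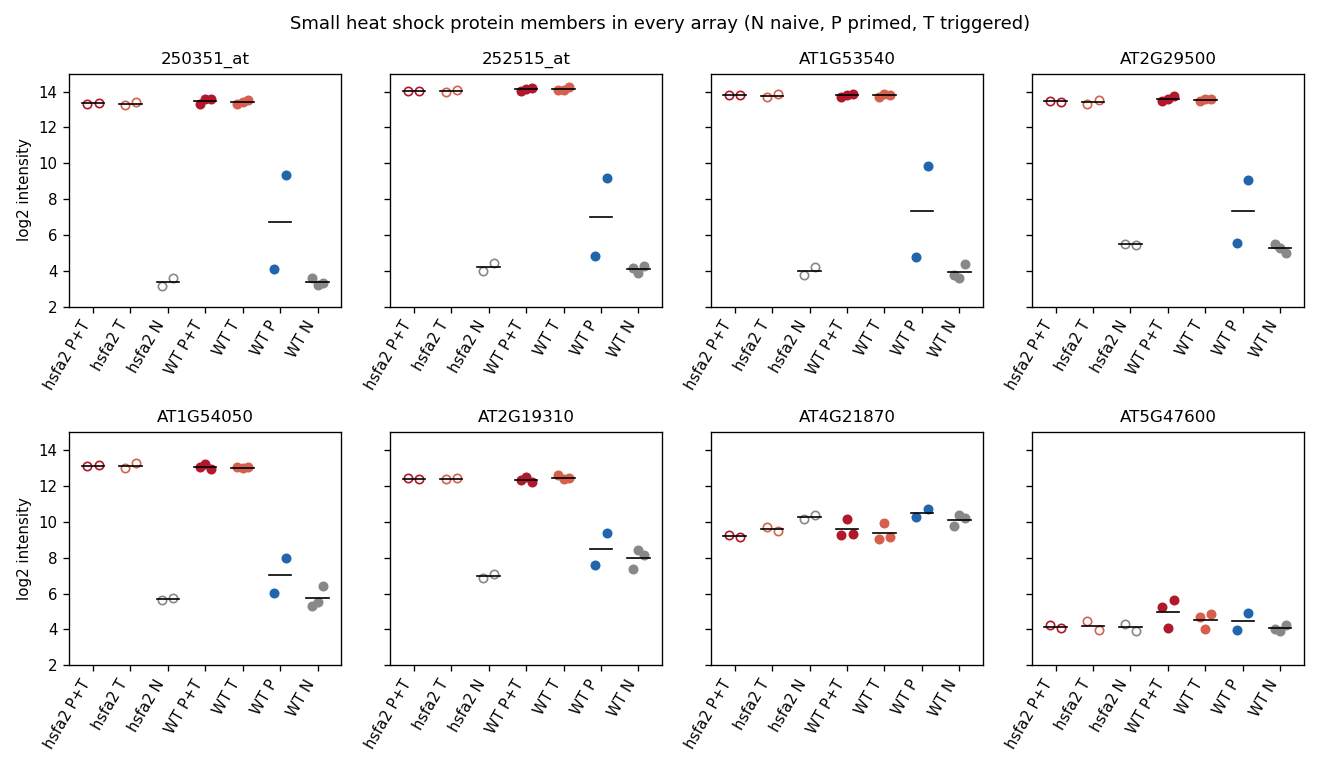
Log2 intensity of the 8 members in each of the 17 arrays, 1 panel a member, with groups on the horizontal axis (open circles hsfa2, filled circles wild type, N naive, P primed, T triggered, P+T both) and a line at each group mean. In 6 panels all arrays heated just before collection lie between 12.2 and 14.3 whatever the genotype and earlier heat, while AT4G21870 stays between 9.04 and 10.7 and AT5G47600 between 3.93 and 5.67.

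The 2 members that hardly responded differed from each other in level. AT4G21870, an HSP20 family gene with a divergent sequence, gave a strong signal without heat and was brighter than 93.5% to 96.2% of probe sets in naive arrays. It was at 9.04, 9.92 and 9.15 in triggered wild-type seedlings, against 9.77, 10.40 and 10.20 in naive ones. The groups overlapped through triggered replicate 2 and naive replicate 1. The change was −0.75 (SE 0.27, 95% interval −1.34 to −0.16, limma adjusted p = 0.0849), so it opposed the rise of the 6 in sign but was not called. It was called without triggered replicate 2 (−1.03, limma adjusted p = 0.0247), and centring the arrays on their medians made it −0.60.

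AT5G47600, an HSP20-like gene, gave a low signal, brighter than 25.5% to 48.8% of probe sets over the 17 arrays. It was at 4.70, 4.00 and 4.88 in triggered arrays, against 4.05, 3.93 and 4.23 in naive ones, with overlapping groups. The change of 0.45 (SE 0.37, 95% interval −0.34 to 1.25, limma adjusted p = 0.466) was not called. The interval ends below that of AT2G19310 (3.73 to 5.27), the member with the smallest change among the other 6. This comparison made the division, so the gap is a description.

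For both weak members the wild-type arrays of replicate 2 stood apart from those of replicates 1 and 3 after heat. AT4G21870 was at 10.17 in primed and triggered replicate 2, against 9.27 and 9.32 in replicates 1 and 3, and triggered replicate 2 was likewise the highest of its group. AT5G47600 was at 4.06 in primed and triggered replicate 2, against 5.24 and 5.67 in the other 2, and triggered replicate 2 was the lowest of its group. In naive arrays replicate 2 was also the highest for AT4G21870 and the lowest for AT5G47600, but less far from the others. The labels do not say that a number marks a shared batch.

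**Figure D2:**
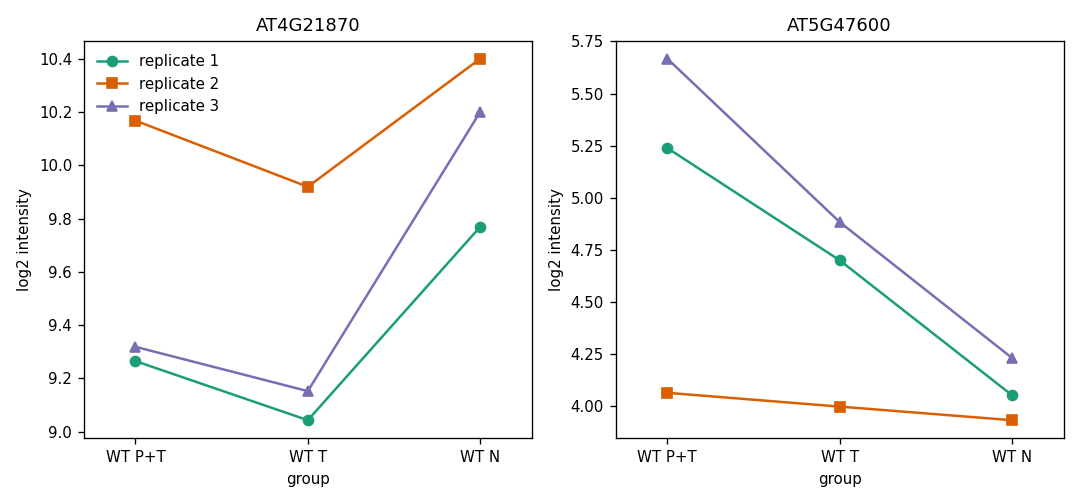
Log2 intensity of AT4G21870 (left) and AT5G47600 (right) in wild-type primed and triggered (P+T), triggered (T) and naive (N) arrays, with arrays of 1 replicate number joined by a line. Replicate 2 is the highest line for AT4G21870 and the lowest for AT5G47600 in both heated groups, and the axes of the panels differ.

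The hsfa2 knockout was used to ask which heat responses need HSFA2. After 1 h of heat the same 6 members were called higher in hsfa2 as in the wild type, by 5.46 to 9.96 log2 units (limma adjusted p between 2.20e-07 and 3.40e-05), against 3.5% of all probe sets. In hsfa2, 250351_at was at 13.24 and 13.42 after triggering, against 3.15 and 3.59 in naive seedlings. AT1G53540 was at 13.68 and 13.84, against 3.74 and 4.23, and AT1G54050 was at 12.99 and 13.29, against 5.65 and 5.76. For each of these 3 members at least 1 hsfa2 triggered array lay outside the range of the wild-type triggered arrays, by less than 0.3 log2 units. AT4G21870 was at 9.73 and 9.50, against 10.19 and 10.40, which did not overlap but was not called (−0.68, SE 0.33, limma adjusted p = 0.274), where 32.8% of all probe sets had non-overlapping groups in that direction. AT5G47600 was at 4.47 and 3.95, against 4.30 and 3.93.

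Set directly against each other after triggering, hsfa2 and wild-type seedlings differed by −0.32 to 0.24 log2 units over the 8 members. By limma 0 members were called, against 0.00879% of all probe sets. At an unadjusted p under 0.05 there were 0 members and 1576 of all 22746 probe sets. The groups overlapped for 7 members, while 252515_at was lower without overlap (13.98 and 14.07 in hsfa2, against 14.10, 14.08 and 14.26 in the wild type), as were 10.5% of all probe sets. Both primed arrays entered this fit and widen its errors, since the spread between them is shared by every comparison. Fitted without the primed arrays, the 95% intervals were −0.44 to 0.26 for 250351_at, −0.46 to 0.22 for 252515_at, −0.48 to 0.42 for AT1G53540, −0.43 to 0.20 for AT2G29500, −0.43 to 0.65 for AT1G54050 and −0.57 to 0.45 for AT2G19310. A difference of 2-fold either way (1 log2 unit) therefore lay outside the interval for each of the 6, within the limit that signals near the top of the range may be compressed. The difference in triggering response itself was called for 0 of 8, against 0.0044% of all probe sets. Unadjusted limma p-values under 0.05 were found for 0 members and for 269 of all 22746 probe sets.

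The response of AT2G19310 was nominally larger in hsfa2, and its naive level was where the genotypes parted. It was at 6.85 and 7.07 in naive hsfa2 seedlings, against 7.37, 8.42 and 8.13 in naive wild-type ones, without overlap, as was so for 10.1% of all probe sets in that direction. The naive difference was −1.01 (SE 0.40, unadjusted p = 0.0247, limma adjusted p = 0.733), and none of the 22746 probe sets was called between the naive genotypes. After triggering it was at 12.41 and 12.43 in hsfa2, against 12.60, 12.41 and 12.43 in the wild type. Its rise was 5.46 in hsfa2 and 4.50 in the wild type, and the difference of 0.95 (SE 0.56, limma adjusted p = 1.00) was not called. Fitted without the primed arrays, the difference in response had a 95% interval of 0.23 to 1.67 (unadjusted p = 0.0135, limma adjusted p = 1.00) and the naive difference an unadjusted p of 0.000953 (limma adjusted p = 0.301), so neither was called there.

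The question of transcriptional memory was addressed with primed and triggered against triggered seedlings. None of the 8 members was called in the wild type, where 0.308% of all probe sets were. Unadjusted limma p-values under 0.05 were found for 0 members and for 1098 of all 22746 probe sets. The level of 252515_at was 14.04, 14.12 and 14.21 after both heats, against 14.10, 14.08 and 14.26 after the later heat alone. AT2G29500 was at 13.46, 13.60 and 13.74, against 13.47, 13.60 and 13.59, and AT2G19310 at 12.33, 12.50 and 12.20, against 12.60, 12.41 and 12.43. The groups overlapped for all 8 members, while over all probe sets 4.53% were higher and 3.33% lower without overlap. Same-numbered arrays of these groups deviated together (correlations of 0.56 to 0.66), so the replicate number was also used as a block in a fit of these 6 arrays. There the changes of the 6 induced members lay between −0.13 and 0.06, with 95% intervals inside −0.43 to 0.33, and 0 of 8 members were called.

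In this comparison the weak members had the largest changes of the 8 in the wild type, though neither was called. AT4G21870 was higher after both heats than after the later heat alone by 0.22, 0.25 and 0.17 in the 3 same-numbered pairs of the wild type (blocked limma change 0.21, adjusted p = 0.619). In hsfa2 the same-numbered arrays differed by −0.45 and −0.36, lower without overlap (as were 26.1% of all probe sets). With 2 arrays a group their deviations have the same correlation (0.17) in both pairs, and no label pairs them. For AT4G21870 the difference in the effect of priming between the genotypes was −0.62 (SE 0.43, limma adjusted p = 0.774). AT5G47600 was higher by 0.54, 0.07 and 0.78 in the wild-type pairs (blocked change 0.46, 95% interval 0.10 to 0.83, unadjusted p = 0.0193, limma adjusted p = 0.386). Its same-numbered hsfa2 arrays differed by −0.21 and 0.11. Primed and triggered hsfa2 seedlings were at 4.26 and 4.07, against 5.24, 4.06 and 5.67 in the wild type (−0.83, SE 0.41, limma adjusted p = 0.382), and wild-type replicate 2 overlapped them. Between hsfa2 and wild-type seedlings after both heats 0 of 8 members were called, against 1.37% of all probe sets. At an unadjusted limma p under 0.05 there were 0 members and 3322 of all 22746 probe sets. The difference in the effect of priming was called for 0 of 8 members, against 0.0484% of all probe sets. At an unadjusted limma p under 0.05 there were 0 members and 1850 of all 22746 probe sets.

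In hsfa2 the levels after both heats stayed within those after the later heat for most members. 250351_at was at 13.32 and 13.37 after both heats, against 13.24 and 13.42. The exceptions were AT4G21870, lower without overlap, and AT2G19310, whose replicate 1 lay just above (12.4345 and 12.4162, against 12.4065 and 12.4284). None of the 8 was called, and none of all 22746 probe sets was. Unadjusted limma p-values under 0.05 were found for 0 members and for 1331 of all probe sets. Over all 10 arrays heated just before collection the range of AT1G53540 was 0.18 log2 units and that of AT2G29500 0.42, against a median range of 0.69 over all probe sets. AT4G21870 spanned 1.12 and AT5G47600 1.71 in the same arrays. The signals of the 6 induced members are high in these arrays, where differences may be compressed, so their narrow ranges do not show equal levels. AT2G19310 was the lowest of them, at 12.20 to 12.60, against array maxima of 14.06 to 14.26.

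**Figure D3:**
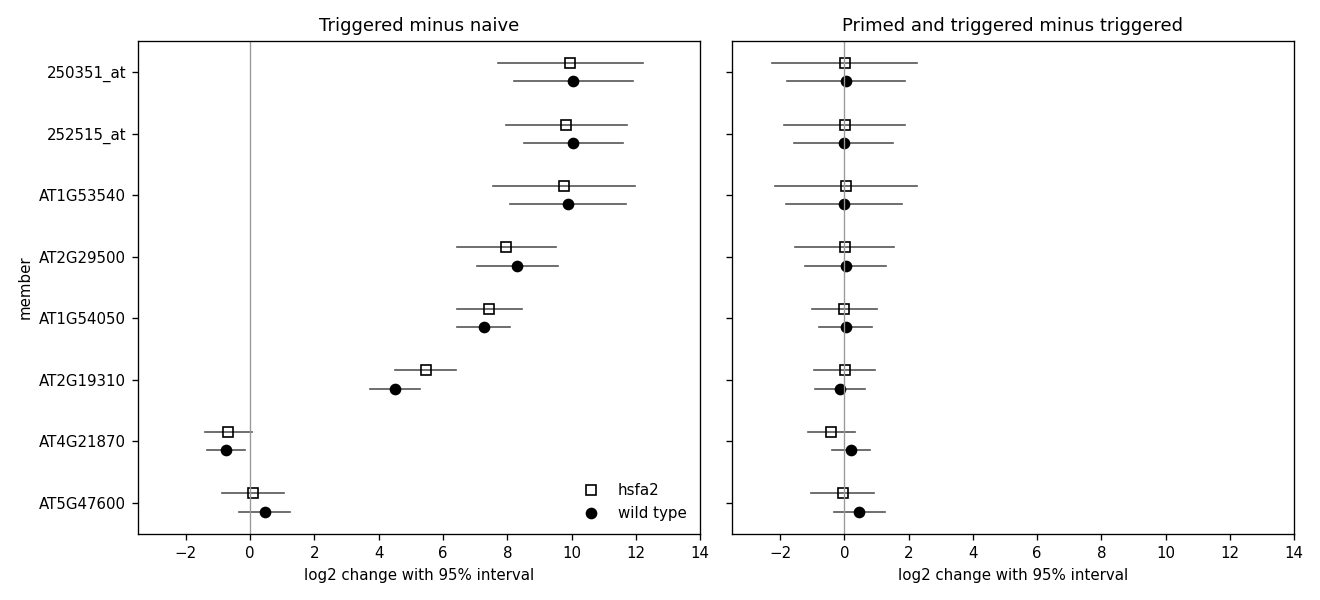
Log2 change of each member with its 95% interval from the fit of all 17 arrays, for hsfa2 (open squares) above the wild type (filled circles), in triggered minus naive (left) and primed and triggered minus triggered (right). On the left 6 members lie between 4.50 and 10.06 in both genotypes, and on the right every interval includes 0.

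Whether the transcripts were still raised 3 d after a heat treatment was read from the primed and naive wild-type arrays, and the answer differed between the 2 primed arrays. In primed replicate 2 all 8 members were above every naive array. The 6 induced members lay 1.44 to 5.99 log2 units over the naive mean, AT4G21870 0.60 and AT5G47600 0.87. Of all probe sets, 24.7% were above every naive array there and 1.72% were at least 2-fold above the naive mean. In primed replicate 1 the 6 lay between −0.39 and 0.88 from that mean, and 1.93% of all probe sets were at least 2-fold above it. The comparison was not called for any member (0 of 8), and 0.0044% of all probe sets were called by limma. Unadjusted limma p-values under 0.05 were found for 5 of the 8 members and for 2061 of all 22746 probe sets. Without primed replicate 1, 5 members were called (all but AT2G19310, AT4G21870 and AT5G47600) and 0.176% of all probe sets. Without primed replicate 2, 0 members were called and 0.29% of all probe sets. Each of these fits holds 1 primed array, which is assumed to vary like the arrays of the other groups, so its calls describe that array.

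The 2 primed arrays lay over 4 log2 units apart for 250351_at, 252515_at and AT1G53540. 250351_at stood at 4.12 (replicate 1) and 9.35 (replicate 2) in primed seedlings, against 3.60, 3.20 and 3.29 in naive seedlings (change 3.37, SE 0.95, limma adjusted p = 0.382). AT1G53540 was at 4.79 and 9.87, against 3.76, 3.57 and 4.38 (change 3.42, SE 0.93, limma adjusted p = 0.379). 252515_at was at 4.80 and 9.17, against 4.15, 3.85 and 4.27. For these 3 genes and for AT2G29500 (5.54 and 9.07, against 5.47, 5.29 and 4.98) even the lower primed array was above all naive arrays, as were both arrays in 9.54% of all probe sets. AT1G54050 (6.04 and 8.01, against 5.30, 5.56 and 6.43) and AT2G19310 (7.58 and 9.41, against 7.37, 8.42 and 8.13) overlapped the naive arrays through replicate 1.

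On the linear scale the excess of primed replicate 2 over the naive mean was a small part of the rise that triggering gave. It was 6.52% of that rise for AT1G53540, 5.84% for 250351_at, 4.17% for AT2G29500, 3.08% for 252515_at, 2.40% for AT1G54050 and 7.68% for AT2G19310. In replicate 1 the same share was between 0.06% and 0.10% for the first 5 and −1.30% for AT2G19310. The shares are taken against high triggered signals, so compression toward the top of the range would make them too high, and they are not compared between probe sets. The 611 probe sets called at least 2-fold higher after triggering (2.69% of all) had a median share of 0.68% in replicate 2 and −0.15% in replicate 1. Of those 611, 59 (9.66%) were at least 2-fold above the naive mean in replicate 2 and 10 (1.64%) in replicate 1. AT4G21870 was at 10.26 and 10.73 in primed arrays, against 9.77, 10.40 and 10.20, and AT5G47600 at 4.00 and 4.94, against 4.05, 3.93 and 4.23, so replicate 2 was the higher of the primed arrays for all 8 members.

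Both primed arrays share the low bioB signal with 1 naive array. Against that array alone, naive replicate 3, the mean of the primed arrays was higher by 3.44 for 250351_at, 2.95 for AT1G53540, 2.72 for 252515_at, 2.32 for AT2G29500, 0.60 for AT1G54050 and 0.37 for AT2G19310. Primed replicate 1 minus that array was −0.38 for AT1G54050, −0.55 for AT2G19310 and 0.41 to 0.83 for the 4 members whose groups did not overlap. With the bioB batch as a block, the limma fit estimates the same differences between the primed mean and naive replicate 3, and no member was called. That fit rests on naive replicate 3, the only naive array with low bioB. The batch was read from bioB and is named by no label, and its part in the primed values was not tested further. The primed arrays themselves differ in the GAPDH 3′ minus 5′ value, 2.24 in replicate 1 and 1.84 in replicate 2.

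**Figure D4:**
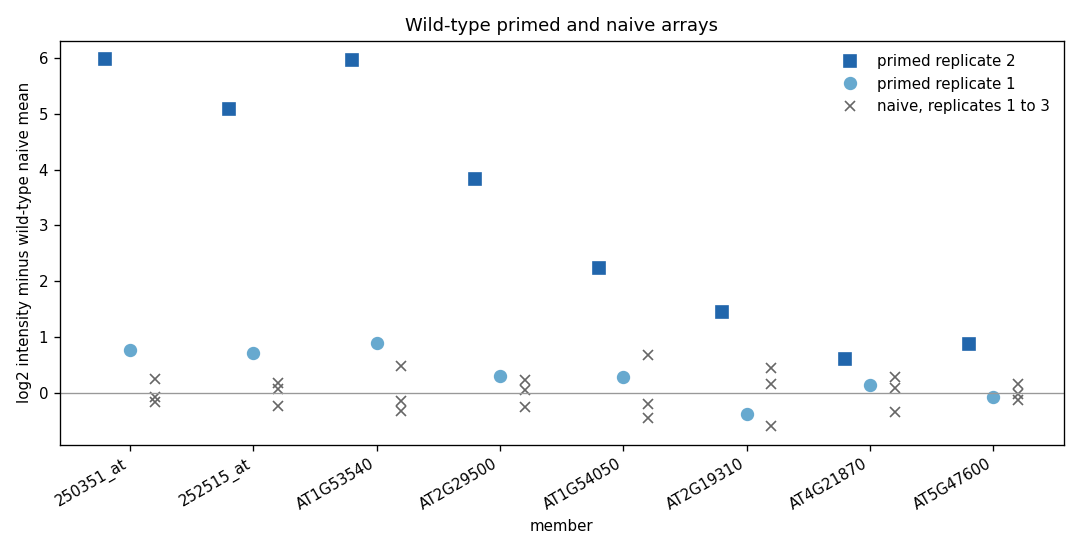
Log2 intensity of each member minus its wild-type naive mean, for primed replicate 2 (squares), primed replicate 1 (circles) and the 3 naive arrays (crosses). Primed replicate 2 lies 1.44 to 5.99 above the naive mean for the 6 induced members, whereas primed replicate 1 lies between −0.39 and 0.88.

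From the primed level, the later heat called the same 6 members higher, by 3.85 to 7.14 log2 units, against 8.51% of all probe sets called higher. The change was 7.14 (SE 0.80) for 252515_at, 6.75 (SE 0.95) for 250351_at, 6.45 (SE 0.93, limma adjusted p = 0.000356) for AT1G53540, 6.29 (SE 0.65) for AT2G29500, 6.06 (SE 0.43) for AT1G54050 and 3.85 (SE 0.40) for AT2G19310. The call of AT1G53540 was lost when only these groups were fitted (limma adjusted p = 0.05004). These changes subtract a primed mean that primed replicate 2 raises. With primed replicate 1 as the only primed array the change was 9.36 for 250351_at and 8.99 for AT1G53540, and with replicate 2 alone 4.13 and 3.91. AT4G21870 was lower after both heats in every array (9.27, 10.17 and 9.32, against 10.26 and 10.73 in primed seedlings), with a change of −0.91 (SE 0.31, limma adjusted p = 0.0505) that narrowly missed the threshold, where 12.6% of all probe sets were called lower and 23.2% were lower without overlap. It was called after quantile normalization (limma adjusted p = 0.0379), with the dimmest 25% of probe sets left out (0.0429), with a variance trend and robust prior (0.0428) and without primed and triggered replicate 2 (−1.20, limma adjusted p = 0.00992). It was not called with the arrays centred on their medians (−0.735, limma adjusted p = 0.103). Nor was it with only these groups fitted (limma adjusted p = 0.164). It was not called without primed replicate 1 (−1.14) or 2 (−0.68), and with the bioB batch as a block it was −0.79 (limma adjusted p = 0.460). AT5G47600 changed by 0.52 (SE 0.41) and was not called.

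The interaction of priming and triggering, the rise from the primed level minus the rise from the naive level, was not called for any member (0 of 8, 0.0176% of all probe sets called by limma). Unadjusted limma p-values under 0.05 were found for 4 of the 8 members and for 1065 of all 22746 probe sets. The interaction was −3.42 (SE 1.25) for AT1G53540 and −3.31 (SE 1.28) for 250351_at, and −0.88 and −0.70 for these 2 without primed replicate 2. Without primed replicate 1 it was −5.96 and −5.93 and 4 members were called lower, against 0.127% of all probe sets called in either direction. The spread again comes from the other groups, since 1 primed array is left. Primed and triggered minus triggered was −0.0007 for AT1G53540 and 0.06 for 250351_at. Their interaction is therefore nearly the primed minus naive change (3.42 and 3.37) with its sign reversed. Signals after heat lie near the top of the range, so the interaction cannot tell a smaller response to the later heat from a higher starting level.

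Other genes of the cytosolic and organelle protein folding system were read from lists of loci for comparison. An entry counts as measured if the annotation used here gives it a probe set with 1 gene. That annotation leaves out 8730 probe sets, so an entry not measured here may still have a probe set on the array. Of 7 organelle-targeted small heat shock protein genes, 4 were measured and all 4 rose after triggering in the wild type, with a median of 8.77 log2 units, and in hsfa2 4 of 4 rose with a median of 8.90. They were AT1G52560 (9.40), ATHSP22.0 of the endoplasmic reticulum (9.11), the mitochondrial AT5G51440 (8.43) and the peroxisomal AT5G37670 (7.72). Among 14 chaperone partners 7 were measured and 7 rose, with a median of 6.42, led by the J-domain protein gene AT2G20560 (7.54), the co-chaperone gene Hop3 (7.37), the FKBP-type immunophilin gene AT5G48570 (7.08) and Fes1A, a partner of cytosolic HSP70 (6.42). In primed replicate 2 the organelle members lay at a median of 2.72 and the partners at 2.06 log2 units above the naive mean, against 0.39 and 0.10 in replicate 1. A further small heat shock protein gene, AT5G54660, the only measured one of 7 other cytosolic entries, did not respond beyond its error (−0.08, SE 0.29, limma adjusted p = 0.886). The 16 entries for heat shock factors and regulators had no probe set with 1 gene in that annotation.

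Patterns were also compared as the root mean square difference between centred group means over the 7 groups. Among members the closest pair was AT1G53540 and 250351_at, 0.11 log2 units apart, and AT2G19310 had no member nearer than 1.18. Among other probe sets with 1 gene, AT1G52560 was the nearest to 250351_at (0.56), to AT1G53540 (0.58) and to 252515_at (0.40). AT2G20560 was the nearest to AT1G54050 (0.14) and to AT2G29500 (0.26). The mitochondrial gene ccb452, for cytochrome c biogenesis, was the nearest to AT2G19310 (0.27), AT3G49720 to AT4G21870 (0.06) and AT3G27550 to AT5G47600 (0.09). Such differences are small between probe sets that change little, so values of weak and induced members are not compared.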

How the data were processed

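The authors deposited 1 table of intensity values on a linear scale (3.94 to 19602, with 0 zeros), made with RMA per the submitters' processing notes. No version is named there. Values were turned to log2 without a pseudocount, 64 Affymetrix control probe sets were left out, and 22746 probe sets were tested. The array annotation gave 1 gene for 13513 probe sets, several for 503 and none for 8730, and 13436 of the first could be placed on a RefSeq locus (TAIR10.1). Coordinates are left out because the table names no build.

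Group means of 7 groups were fitted to all 17 arrays with limma 3.58.1 in R 4.3.3 (10 residual degrees of freedom, prior 2.92), with 12 comparisons. P-values were adjusted by Benjamini-Hochberg across the whole table within each comparison, and called means adjusted p below 0.05. The fit was tested on simulated data. The number of arrays limits the precision. The labels call arrays of a group biological replicates.

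All members are named. Likeness, list examples and the division into induced and weak members follow rules written down with the design, but members and lists were chosen with earlier results of these data known. Alternatives were another scaling, replicate number or bioB batch as a block, other arrays or probe sets in the fit, another variance prior and leaving out each array. Same-numbered arrays of the wild-type triggered and primed and triggered groups deviated together in all 3 pairs (correlation over 0.1). Over all 45 same-numbered pairs, 15 did.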

Additional observations from a re-analysis of the deposited data

How the results depend on the processing

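Counts of called members were within 1.5 times of those reported under another scaling, with blocks, with other arrays in the fit, with the dimmest 25% of probe sets left out (all 8 members stayed) and with another variance prior, for all 12 comparisons. Leaving out 1 array at a time gave 0 to 5 called members in primed against naive wild-type seedlings and 0 to 4 in the interaction of priming and triggering. The upper values came without primed replicate 1 and all other arrays gave 0, so both results turn on which primed array is kept, and the cause was not tested. Triggered against naive wild-type seedlings gave 6 to 7 and primed and triggered against primed ones 6 to 7, the seventh being AT4G21870 without replicate 2 of the heated group. Of 1360 member changes under the alternatives 1342 kept their side of the threshold, 17 gained a call, 1 lost it and 0 called changes reversed. The loss was that of AT1G53540 in primed and triggered against primed seedlings fitted alone (6.45, adjusted p = 0.05004), where 5 members were called. AT4G21870 gained a call in hsfa2 triggered against naive seedlings fitted alone (adjusted p = 0.0164). With the replicate number as a block in all 17 arrays, 7 members were called in triggered against naive and in primed and triggered against primed wild-type seedlings, AT4G21870 being added in each (adjusted p = 0.0407 and 0.0372), and no other member's call changed. Naive and triggered same-numbered arrays correlated at −0.16 in replicate 1, so there the number is not shown to pair them. Fits without the primed arrays, values within the low-bioB arrays and the blocked fit of 6 arrays were chosen after seeing the data. Signals near the top and the bottom of the range limit what a change of the induced members can show.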
